A study of Mus musculus with 6 samples.

Results

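Genes of mitosis and cytokinesis were followed in embryonic mouse hearts labelled wild type or β1 integrin knockout. The set holds 40 genes picked by name: the cyclins and kinases that drive entry into mitosis, the spindle checkpoint, kinetochore proteins, mitotic kinesins, and the machinery that separates chromosomes and divides the cell. A gene was measured by an array feature that carries its symbol alone, the brightest by its mean over the 6 arrays where several do. 39 of the 40 had such a feature, out of 19933 genes in all. Cyclin B1, Ccnb1, had none and is not analysed here.

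The hearts were taken at E12.5 (embryonic day), 3 labelled wild type and 3 labelled KO for b1 integrin, the receptor chain encoded by Itgb1. Total RNA of each sample was read on 1 Affymetrix Mouse Gene 1.0 ST array, and the deposited log2 signal of 28767 transcript clusters was used, a cluster being the probes assigned to 1 transcript unit. The series' design text calls the arrays of a group biological replicates. The sources used here do not give the allele, any Cre driver, the strain, or whether hearts were pooled, and a p-value covers only how these 6 samples vary. The 15 cardiomyocyte markers had mean log2 signals of 12.45 to 12.59 per heart, against array medians of 6.65 to 6.71. Itgb1 signal was 11.76, 11.80 and 11.78 in the wild-type hearts and 11.53, 11.42 and 11.65 in the knockout hearts, a difference of -0.25 ± 0.09 (log2, SE; limma, Benjamini-Hochberg adjusted p = 0.797). The knockout hearts all lay below the wild-type hearts (exact two-sided permutation p = 0.1, the smallest that 3 against 3 can give). Where its probes lie relative to the deleted part is not known here, so this is a weak check of the labels.

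At this stage the heart grows mainly by division of its muscle cells, and endocardial, cushion and epicardial cells divide as well. Entry into mitosis is driven by Cdk1 bound to cyclins A and B, and exit by the anaphase-promoting complex, a ubiquitin ligase that marks cyclin B and securin for destruction once every chromosome is attached. Most of these genes are switched on together late in the cell cycle by the MuvB complex with B-Myb and Foxm1, which binds a short promoter element named CHR (cell cycle genes homology region), often with CCAAT boxes bound by NF-Y further upstream. In bulk RNA, fewer dividing cells and less transcript per dividing cell cannot be told apart.

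The promoters show what the set shares at the level of sequence. RefSeq windows of 300 bases, running from 250 bases before to 50 after a transcript start on build GRCm38.p6, were found for 32 of the 39 measured genes. Aurkb, Ccna2, Cdc25c, Foxm1, Incenp, Kif20a and Tpx2 had none. The CHR was searched as the letters TTTGAA on both strands. They stood in 24 of the 32 genes and in 27 of their 35 windows (77.1%), since Ect2, Bub3 and Prc1 have 2 overlapping windows each. In the whole table, noncoding genes included, they stood in 17.9% of windows and in 20.2% of the 27025 genes. A variant of the element, TTCGAA, was found in 4 of the 32, against 1.8% of all genes. The NF-Y box was searched as CCAAT on both strands and stood in 23 genes (71.9%, against 41.1%). Both the CHR letters and the NF-Y box were held by 20 of the 32 genes (62.5%), against 7.97% of all genes. These shares describe letters, not bound sites.

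Windows are shown for 5 members: the cyclin and kinase genes Ccnb2 and Cdk1, the 2 genes with both motifs whose knockout values lay above the wild-type values, Cenpf and Ect2, and Cenpe, which also lay above but holds no TTTGAA. These were chosen after their values were seen. In the order Cdk1, Ccnb2, Cenpf, Ect2 and Cenpe they lie at chr10:69352863-69353162 (minus strand), chr9:70421505-70421804 (minus strand), chr1:189688037-189688336 (minus strand), chr3:27153829-27154128 (minus strand) and chr3:135212313-135212612 (plus strand), and are written 5′ to 3′ along the gene with every TTTGAA and CCAAT match, on either strand, in capitals (a box on the opposite strand reads ATTGG). No TTCGAA is present in any of the 5.

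Cdk1: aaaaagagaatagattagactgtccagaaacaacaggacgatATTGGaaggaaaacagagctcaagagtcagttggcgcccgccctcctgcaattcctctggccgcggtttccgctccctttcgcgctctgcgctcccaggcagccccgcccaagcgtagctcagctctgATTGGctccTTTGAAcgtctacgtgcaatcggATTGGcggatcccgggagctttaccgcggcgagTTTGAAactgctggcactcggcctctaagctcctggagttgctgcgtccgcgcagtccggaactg
Ccnb2: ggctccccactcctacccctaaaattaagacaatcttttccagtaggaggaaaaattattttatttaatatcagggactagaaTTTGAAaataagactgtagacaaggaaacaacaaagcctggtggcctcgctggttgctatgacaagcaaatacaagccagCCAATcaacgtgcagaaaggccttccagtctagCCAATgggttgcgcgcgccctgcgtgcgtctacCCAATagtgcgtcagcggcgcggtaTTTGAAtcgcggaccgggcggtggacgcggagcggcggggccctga
Cenpf: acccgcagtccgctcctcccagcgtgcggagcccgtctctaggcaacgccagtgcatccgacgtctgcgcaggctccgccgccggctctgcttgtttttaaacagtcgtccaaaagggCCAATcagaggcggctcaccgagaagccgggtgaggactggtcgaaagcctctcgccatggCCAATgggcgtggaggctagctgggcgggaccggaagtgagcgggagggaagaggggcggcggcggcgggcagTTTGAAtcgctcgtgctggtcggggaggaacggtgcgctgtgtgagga
Ect2: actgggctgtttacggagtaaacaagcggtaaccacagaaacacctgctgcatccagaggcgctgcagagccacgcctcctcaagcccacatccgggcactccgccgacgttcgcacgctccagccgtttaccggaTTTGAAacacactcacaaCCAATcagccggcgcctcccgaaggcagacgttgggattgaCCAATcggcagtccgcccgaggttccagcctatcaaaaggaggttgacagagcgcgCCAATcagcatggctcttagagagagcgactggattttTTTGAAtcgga
Cenpe: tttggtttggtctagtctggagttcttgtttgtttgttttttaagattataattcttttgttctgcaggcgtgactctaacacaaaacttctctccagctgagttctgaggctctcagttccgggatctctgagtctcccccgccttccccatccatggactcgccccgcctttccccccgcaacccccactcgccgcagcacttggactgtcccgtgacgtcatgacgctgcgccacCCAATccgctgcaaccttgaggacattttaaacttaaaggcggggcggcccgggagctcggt

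With the first transcribed base as 0, TTTGAA matches in the Cdk1 window began at -71 and -15, and NF-Y boxes at -208, -80 and -48. Ccnb2 held 3 NF-Y boxes at -87, -54 and -21 and TTTGAA matches at 4 and -167. In all 23 windows of members that hold both motifs a CCAAT match lay upstream of a TTTGAA match, against 53.7% of the 2284 windows with both in the whole table. A single pair in that order meets this count, which many matches make easier: 8 of the 23 windows also held a CCAAT match downstream of a TTTGAA match, as in Cdk1 and Ccnb2 (34.8%, against 61.6%). Of windows with 1 match of each motif, CCAAT lay upstream in 8 of 8 of members and in 44.6% of 1382 in the table. TTTGAA began within 50 bases of the start in 22 of the 32 genes (68.8%), against 5.72% of all genes. The order and the distance were looked at after the positions had been seen.

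**Figure D1:**
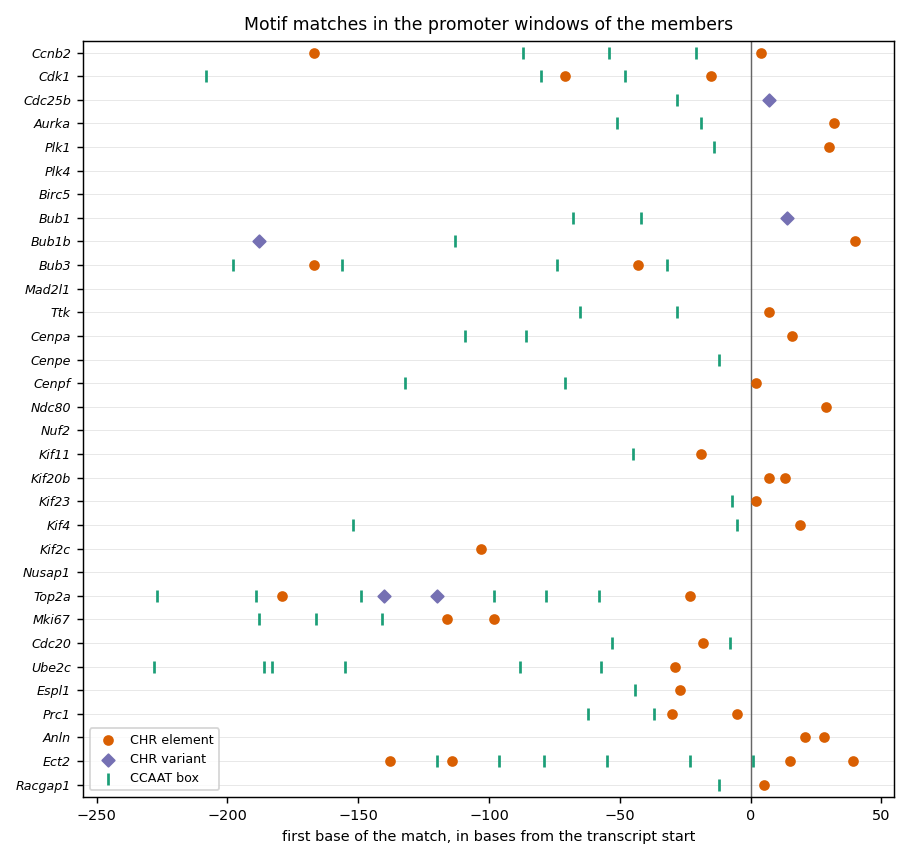
Motif matches in the promoter windows of the 32 measured genes with an entry, by the distance of their first base from the transcript start (x axis, bases, upstream to the left); where a gene has several windows, the matches of all are drawn. Orange circles mark TTTGAA, purple diamonds TTCGAA and green bars CCAAT, and in most rows a circle lies near the start with green bars to its left.

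Among other mitosis genes, a list of 90 non-members that includes condensin, cohesin and further kinetochore genes, TTTGAA stood in 32 of 71 genes with a window (45.1%). Among genes of DNA replication it stood in 4 of 28 (14.3%). CCAAT stood in 46 of the 71 (64.8%) and 17 of the 28 (60.7%), closer to the 71.9% of members than to the 41.1% of all genes. Both motifs were held by 32.4% of the other mitosis genes and 10.7% of the replication genes. TTTGAA began within 50 bases of the start in 35.2% and 7.14%. The 24 members with TTTGAA and the 8 without it had median differences between knockout and wild type of 0.01 and 0.02 on the log2 scale, with ranges of -0.16 to 0.19 and -0.12 to 0.09. The first class had 12 genes with a lower knockout mean and the second 4.

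Signals of the mitosis set were close in the 2 groups of hearts. Of the 39 measured members 19 had a lower and 20 a higher mean in the knockout, so that 48.7% were lower, against 53.5% of all clusters and 57.5% of the 10341 clusters at least as bright as the dimmest member. None passed limma's test (Benjamini-Hochberg adjusted p over all clusters, lowest 0.797 among members), as in the whole table, where 0% of clusters passed. At an unadjusted p under 0.05 there were 0 members in either direction, against 2.87% of all clusters lower and 3.06% higher. With a trended robust variance 2 members, Foxm1 and Ect2, came under that unadjusted limit (lowest adjusted p among members 0.793). The share of all clusters under the limit in that fit is not given here, so this count has no background beside it. The median difference was 0.00 over the members and -0.01 over all clusters, and the median size of the difference, sign aside, was 0.06 against 0.09 (0.08 over the bright clusters). With cyclic loess scaling 14 of 39 members were lower, as they were without knockout heart 1. Without wild-type heart 3 it was 24 of 39.

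The intervals bound what these hearts allow. Every one of the 39 intervals of 95%, taken gene by gene, lay inside a 1.5-fold difference in either direction, with the lowest bound at -0.41 (Foxm1) and the highest at 0.41 (Ect2). This held for 25268 of the 28767 clusters, and for 9538 of the 10341 bright clusters. A p that misses the threshold does not show that the groups are alike, but for each member a difference larger than 1.5-fold lies outside its interval.

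**Figure D2:**
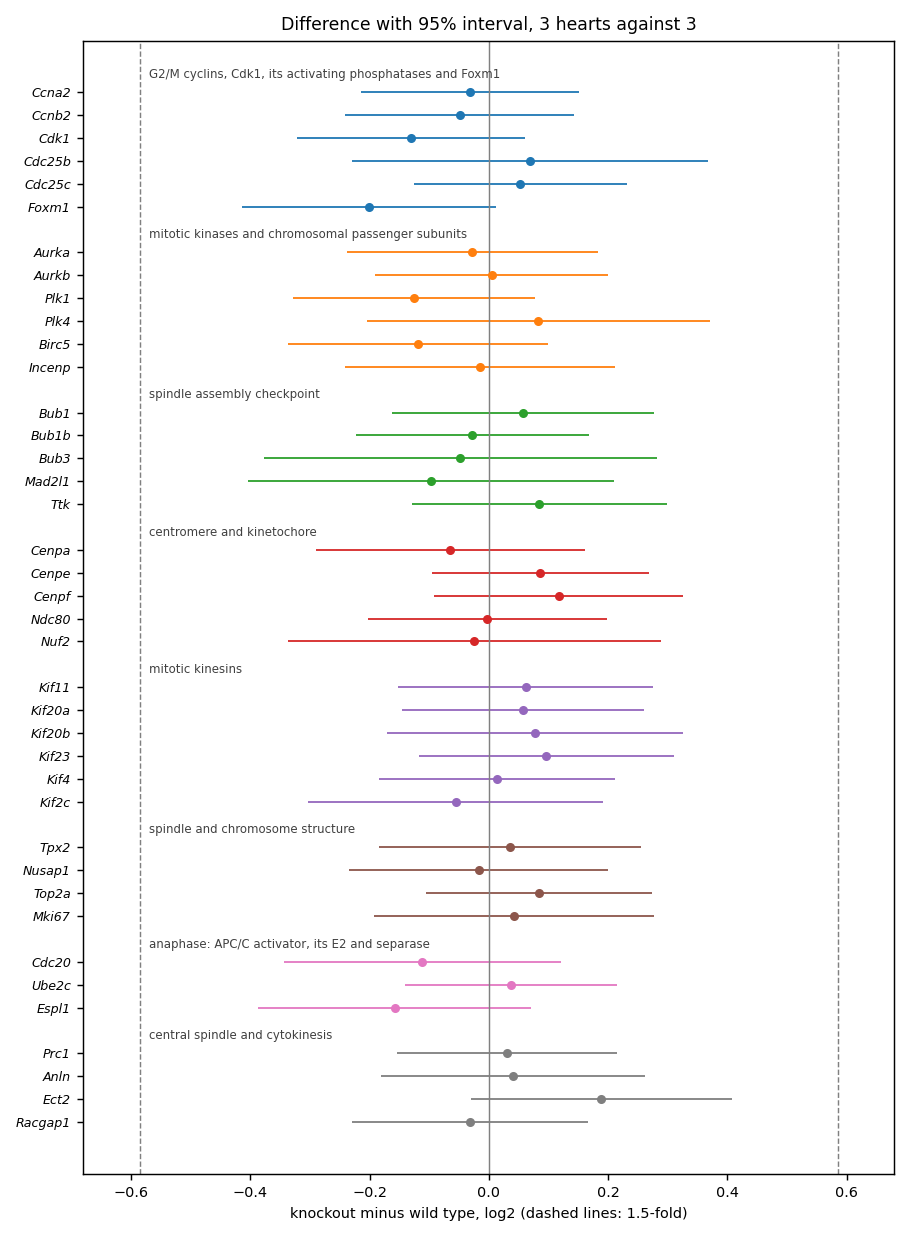
Knockout minus wild-type difference of each measured member (x axis, log2; points) with its 95% interval from limma (bars), 3 hearts against 3, grouped and coloured by role. All 39 bars stay between the dashed lines at a 1.5-fold difference and cross 0; Foxm1 at -0.20 and Ect2 at 0.19 lie farthest out.

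5 members had no overlap between the groups. The knockout lay below for Cdk1 and Foxm1 (5.13%, against 6.61% of all and 8.19% of bright clusters) and above for Cenpe, Cenpf and Ect2 (7.69%, against 6.01% of both). These shares are near the background. They also rest on narrow gaps, as 1 member in place of 3 lay above when arrays were centred on their medians. Leaving out a heart makes separation easier: the knockout lay below for 6 members without wild-type heart 3 and for 6 without knockout heart 2. It lay above for 5 without wild-type heart 2, for 6 without knockout heart 1 and for 6 without knockout heart 2. The matching shares of all clusters are not given here, so these counts cannot be set against a background.

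Among the regulators of mitotic entry, 4 of 6 were lower by mean and 2 higher. Foxm1, the forkhead factor that activates many of the other members, had the largest difference of the set. Its log2 signal was 8.89, 8.74 and 8.70 in wild-type hearts 1 to 3 and 8.50, 8.65 and 8.57 in knockout hearts 1 to 3. The wild-type mean was 8.77 ± 0.10 (SD, n = 3), the knockout mean 8.57 ± 0.08 (SD, n = 3), and the difference -0.20 ± 0.09 (SE), or 87.0% of wild type (limma, adjusted p = 0.797). Each knockout heart lay below each wild-type heart, and the difference ranged from -0.24 to -0.14 over the alternative fits, with an adjusted p of at least 0.445.

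Cdk1, the kinase whose activity defines mitotic entry, read 10.07, 9.97 and 10.04 in the wild type and 9.83, 9.90 and 9.95 in the knockout. Its highest knockout value stood just under its lowest wild-type value, and the difference was -0.13 ± 0.08 (SE). The cyclins that pair with it were closer. Cyclin A2, Ccna2, the gene of this group with the smallest difference, read 10.97, 10.99 and 10.91 in the wild type and 10.89, 10.97 and 10.92 in the knockout, where only wild-type heart 3 lay within the range of the knockout hearts, and differed by -0.03 ± 0.08. Cyclin B2, Ccnb2, differed by -0.05 ± 0.08. The phosphatases that remove inhibitory phosphate from Cdk1 had higher means, by 0.07 ± 0.13 for Cdc25b and 0.05 ± 0.08 for Cdc25c. Cdc25b stood at 8.82 in knockout heart 1, above all wild-type hearts, and its difference was -0.03 without that heart.

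Of the mitotic kinases and passenger subunits 4 of 6 were lower by mean. Polo-like kinase 1, Plk1, which acts at centrosomes, kinetochores and the midbody, read 9.93, 9.98 and 9.84 in the wild type and 9.71, 9.87 and 9.78 in the knockout. The groups met only where knockout heart 2 reached above wild-type heart 3, and the difference was -0.13 ± 0.09. Aurora B, Aurkb, the kinase of the chromosomal passenger complex, had nearly the same mean in both groups, with 9.34, 9.29 and 9.30 against 9.40, 9.33 and 9.22 and a difference of 0.004 ± 0.08. Its partner subunits survivin, Birc5, and Incenp differed by -0.12 ± 0.09 and -0.01 ± 0.10. Aurora A, Aurka, which builds the spindle poles, differed by -0.03 ± 0.09. Plk4, which starts centriole duplication, differed by 0.08 ± 0.12 and had its highest value, 8.46, in knockout heart 3.

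The spindle assembly checkpoint, which holds anaphase back until kinetochores are attached, had 3 of 5 genes lower by mean, and 0 of 5 without knockout heart 1. Mad2l1, the inhibitor that the checkpoint loads onto Cdc20, read 10.33, 10.45 and 10.25 in the wild type and 9.98, 10.33 and 10.43 in the knockout, a difference of -0.10 ± 0.13. Knockout heart 1 alone lay below the wild-type range, and without it the difference was 0.04. Bub3, the adaptor that brings the Bub kinases to kinetochores, had the same shape, with 10.30, 10.19 and 10.17 in the wild type and 9.86, 10.29 and 10.38 in the knockout. Its difference of -0.05 ± 0.14 was 0.11 without knockout heart 1. BubR1, Bub1b, the member of this group with the smallest difference, read 10.13, 10.04 and 9.996 against 9.96, 10.08 and 10.04 (-0.03 ± 0.08). The kinases Bub1 and Ttk (Mps1) had higher means, by 0.06 ± 0.09 and 0.08 ± 0.09.

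Centromere and kinetochore genes went both ways, with 3 of 5 lower by mean and 1 of 5 without knockout heart 1. Cenpf, a large protein of the outer kinetochore and nuclear matrix, read 9.41, 9.40 and 9.21 in the wild type and 9.42, 9.49 and 9.45 in the knockout, a difference of 0.12 ± 0.09. The gap between its groups was small beside the spread of the wild-type hearts. Cenpe, the kinesin that carries chromosomes to the spindle equator, read 8.74, 8.65 and 8.74 against 8.80, 8.77 and 8.82 (0.09 ± 0.08). Ndc80, the microtubule-binding subunit of the kinetochore, had a difference of -0.003 ± 0.09 from values of 7.71, 7.69 and 7.72 in the wild type and 7.80, 7.59 and 7.72 in the knockout. Its partner Nuf2 differed by -0.02 ± 0.13, and by 0.11 without knockout heart 1, which read 8.52 against a lowest wild-type value of 8.72. Cenpa, the histone H3 variant that marks the centromere, differed by -0.06 ± 0.10.

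Of the 6 mitotic kinesins 5 had a higher mean in the knockout. Kif23 (MKLP1), which bundles the central spindle, had the largest difference of these, 0.10 ± 0.09, from 9.75, 9.86 and 9.74 in the wild type and 9.76, 9.92 and 9.96 in the knockout. Knockout hearts 2 and 3 lay above all wild-type hearts and heart 1 among them. Kif4, the chromokinesin, read 9.01, 8.97 and 8.85 against 8.91, 9.01 and 8.96 (0.01 ± 0.09). The others were Kif20b at 0.08 ± 0.11, the spindle-pole separating motor Kif11 at 0.06 ± 0.09 and the cytokinesis motor Kif20a at 0.06 ± 0.09. Kif2c, which depolymerises microtubules to correct attachments, stood at -0.06 ± 0.11. Wild-type heart 3 was the lowest of all hearts for 5 of the 6 kinesins, and without it 3 of the 6 were lower and the mean difference of the kinesins was -0.0044 in place of 0.04.

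Genes of spindle and chromosome structure had 3 of 4 higher means. Without wild-type heart 3, 2 of the 4 were lower, and their mean difference was 0.0003 in place of 0.04. Topoisomerase II alpha, Top2a, which untangles sister chromatids, read 10.82, 10.81 and 10.72 in the wild type and 10.92, 10.81 and 10.87 in the knockout (0.08 ± 0.08). Nusap1, a microtubule-bundling protein, read 8.41, 8.36 and 8.26 against 8.20, 8.39 and 8.39 (-0.02 ± 0.09). The proliferation marker Mki67 (Ki-67), which coats mitotic chromosomes, differed by 0.04 ± 0.10 and the spindle assembly factor Tpx2 by 0.04 ± 0.09. In knockout heart 1 Mki67 stood at 10.91, above every other heart.

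Anaphase genes had 2 of 3 lower means. Separase, Espl1, the protease that cuts cohesin, read 8.72, 8.50 and 8.53 in the wild type and 8.33, 8.52 and 8.42 in the knockout, a difference of -0.16 ± 0.10. Wild-type heart 1 stood above the other 5 hearts, and without it the difference was -0.09. Cdc20, the activator of the anaphase-promoting complex, differed by -0.11 ± 0.10. Ube2c, the ubiquitin-conjugating enzyme of that complex, read 8.97, 8.95 and 8.97 in the wild type and 9.02, 8.95 and 9.03 in the knockout (0.04 ± 0.08), with wild-type values within 0.02 of each other.

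Genes of the central spindle and cytokinesis had 3 of 4 higher means. Without wild-type heart 3, 2 of the 4 were lower, and their mean difference was 0.02 in place of 0.06. Ect2, the exchange factor that switches on RhoA at the division plane, had the largest positive difference of the set. It read 10.06, 9.92 and 9.89 in the wild type and 10.26, 10.11 and 10.06 in the knockout, a mean of 9.95 ± 0.09 (SD, n = 3) against 10.14 ± 0.10 (SD, n = 3). The difference was 0.19 ± 0.09 (SE), or 1.14-fold (limma, adjusted p = 0.797), and ranged from 0.13 to 0.24 over the alternative fits, with an adjusted p of at least 0.426. The lowest knockout heart stood just above the highest wild-type heart. Racgap1, its partner in the centralspindlin pathway, had a difference of the other sign, -0.03 ± 0.09. Prc1, the bundler of antiparallel microtubules, read 10.05, 10.10 and 10.03 against 10.03, 10.14 and 10.11 (0.03 ± 0.08), and the ring scaffold anillin, Anln, differed by 0.04 ± 0.10.

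**Figure D3:**
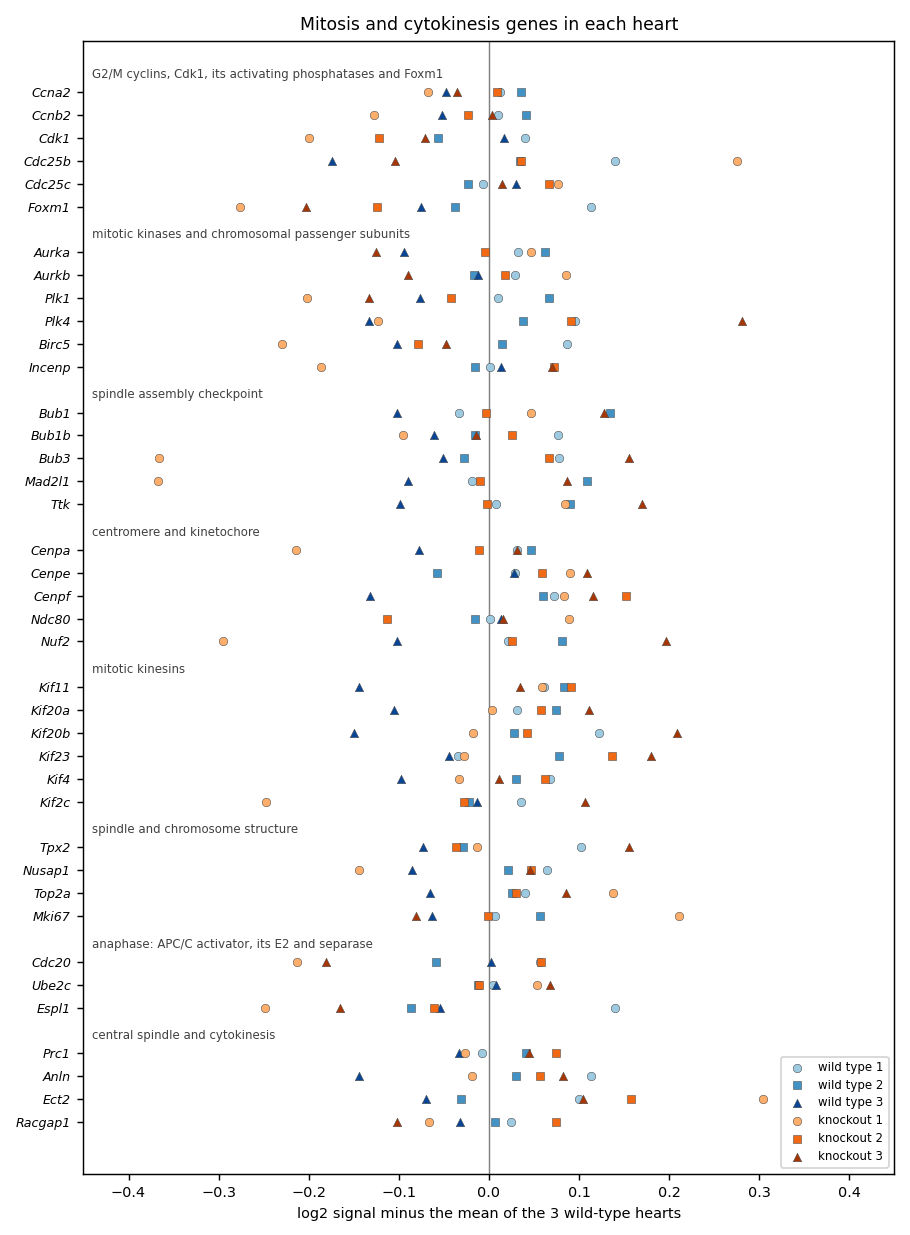
Log2 signal of each measured member in each heart minus the mean of the 3 wild-type hearts for that gene (x axis), grouped by role; blue marks are wild-type and orange to brown marks knockout hearts, with a shape per replicate number. Most marks lie within 0.2 of 0, and knockout heart 1 (pale orange circles) holds the farthest points on both sides, such as Mad2l1 at -0.37 and Ect2 at 0.30.

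The mean over the 39 members did not separate the groups. It was 9.44, 9.41 and 9.33 in wild-type hearts 1 to 3 and 9.34, 9.41 and 9.42 in knockout hearts 1 to 3, or 9.39 ± 0.06 (SD, n = 3) and 9.39 ± 0.05 (SD, n = 3). The lowest 2 hearts were wild-type heart 3 and knockout heart 1. Wild-type heart 3 was the lowest of all hearts for 15 members (38.5%, against 13.2% of all and 17.1% of bright clusters). Knockout heart 1 was the lowest for 16 (41.0%, against 27.0% and 43.0%). By group of roles the mean difference ranged from -0.08 for the anaphase genes to 0.06 for central spindle and cytokinesis genes, with -0.05 for regulators of entry, -0.03 for kinases and passenger subunits, -0.01 for the checkpoint, 0.02 for the kinetochore and 0.04 for spindle and chromosome structure. Leaving out 1 heart turned the sign for 4 of the 8 role groups. Without knockout heart 1 the kinases and passenger subunits stood at 0.0009 and the checkpoint at 0.06. The checkpoint stood at 0.005 without wild-type heart 1, at 0.02 without wild-type heart 2 and at 0.02 with cyclic loess scaling. The kinetochore stood at -0.01 without knockout heart 3 and at -0.005 without wild-type heart 3, and the kinesins turned as given above. The differences between these groups of genes were not tested.

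In each knockout heart some members lay below all wild-type hearts and others above all of them, and several of these shares were near the background. Knockout heart 1 lay below all wild-type hearts for 17 of 39 members (43.6%, against 34.2% of all and 48.6% of bright clusters) and above all of them for 10 (25.6%, against 30.5% and 27.9%). Knockout heart 2 lay below for 4 (10.3%, against 24.4% of all and 28.8% of bright clusters). It lay above for 10 (25.6%), close to the share of all clusters (7187 of 28767), against 20.2% of bright clusters. Knockout heart 3 lay below for 9 (23.1%, against 31.1% of all and 26.0% of bright clusters) and above for 17 (43.6%, against 25.7% and 36.4%). The deviations of knockout heart 1 from the wild-type mean ran from -0.37 (Mad2l1) to 0.30 (Ect2), with Bub3, Nuf2, Foxm1, Espl1 and Kif2c low and Cdc25b and Mki67 high.

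Outside the set, knockout heart 1 stood far from the other hearts for erythroid markers and the response to low oxygen, but not in every list. It read 6.84 for macrophage markers and 8.72 for cushion mesenchyme markers, within the wild-type ranges. For fetal liver markers it read 5.84, the knockout value nearest the wild type. Erythroid markers, 11 measured of 15 listed, had means of 8.08 to 8.43 in wild-type hearts and 9.58, 8.21 and 8.25 in knockout hearts 1 to 3. The 15 genes of the response to low oxygen had means of 8.78 to 8.83 in the wild type and 10.42, 9.11 and 9.02 in the knockout. Macrophage markers (13 of 13 measured) spanned 6.74 to 6.85 and 6.84 to 7.08, fetal liver markers (8 of 9) 5.50 to 5.73 and 5.84 to 6.25, and cardiomyocyte markers 12.54 to 12.59 and 12.45 to 12.55. Endothelial markers (10 of 10) spanned 9.75 to 9.87 in the wild type and 9.69 to 9.72 in the knockout, epicardium markers (9 of 9) 8.62 to 8.64 and 8.60 to 8.77, and cushion mesenchyme markers (10 of 10) 8.29 to 9.33 and 8.72 to 9.43. The part of these cell types in the mitosis values was not tested. Without knockout heart 1 the mean difference of the mitosis members was 0.03, and without wild-type heart 3 it was -0.03.

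**Figure D4:**
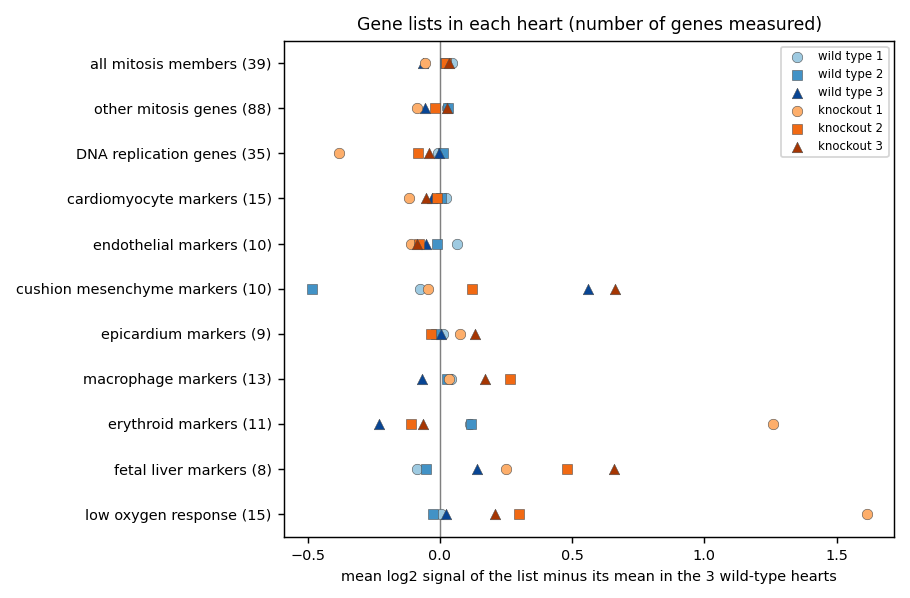
Mean log2 signal of each gene list in each heart minus its mean over the 3 wild-type hearts (x axis), with the number of genes measured beside the list's name; marks as for the hearts in the plot by member. The mitosis members and the other mitosis genes stay within 0.1 of 0 in all 6 hearts, while knockout heart 1 stands at 1.61 for the response to low oxygen, 1.26 for erythroid markers and -0.38 for DNA replication.

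Other genes of mitosis, outside the set, were read in the same way. Of 90 listed genes 88 were measured, 51 lower and 37 higher by mean, with a median difference of -0.02 on the log2 scale and 0 past the adjusted threshold. Their lowest p belonged to Depdc1b, a mitotic gene of the DEP domain family, which read 7.60, 7.51 and 7.61 in the wild type and 7.35, 7.23 and 7.45 in the knockout (-0.23 ± 0.09; limma, adjusted p = 0.797). Lin54, the MuvB subunit that contacts the CHR, read 9.10, 8.996 and 9.07 against 8.78, 8.83 and 8.94 (-0.21 ± 0.09), also with no overlap. These 2, both lower, were the only genes of the 88 at an unadjusted p under 0.05. Over all clusters 2.87% were lower at that limit. Cdca3, a cell division gene, differed by -0.22 ± 0.10 and the cohesin subunit Stag2 by 0.21 ± 0.11. The knockout lay below all wild-type hearts for 5 of the 88 (5.68%, against 6.61% of all and 8.19% of bright clusters). It lay above for 4 (4.55%, against 6.01% of both).

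DNA replication genes, which are transcribed earlier in the cycle, are given beside the mitosis set for scale. All 35 measured of 36 listed were lower by mean in the knockout, against 53.5% of all and 57.5% of bright clusters. Without knockout heart 1 it was 28 of the 35, and that heart was the lowest of all hearts for 33. No overlap was found for 8 (22.9%, against 6.61% of all and 8.19% of bright clusters), and 0 passed the adjusted threshold. Their mean stood -0.38, -0.08 and -0.04 from the wild-type mean in knockout hearts 1 to 3, where the mitosis members stood at -0.06, 0.02 and 0.03. The mean difference was -0.17 for replication genes and -0.0005 for the mitosis members, and without knockout heart 1 it was -0.06 and 0.03. The difference between the 2 lists was not tested.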

How the data were processed

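Values are the log2 signals of 6 arrays as deposited by the authors. Per the submitters' processing notes they come from RMA, a method that corrects background, brings all arrays to the same distribution and reduces a cluster's probes to 1 value. Its version, the probe annotation used and filters, if any: not given in the sources used here. RMA compresses differences of dim clusters, and scanner files were not used. A platform annotation named 21776 clusters with 1 symbol, 1618 with several and 5373 with none; 21686 of the first matched the gene table of GRCm38.p6 by Entrez identifier.

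The 28767 clusters were fitted with limma 3.58.1 in R 4.3.3 (lmFit, eBayes, two-sided, no covariate or filter), and p-values adjusted by Benjamini-Hochberg with a threshold of 0.05. The fit was run on simulated data with equal noise in both groups and shifts larger than any member's difference here. That run checks the code and does not bear on differences as small as those of the members. Signed values are knockout minus wild type. Itgb1 also had an exact permutation test (SciPy 1.17.1). Promoter windows are RefSeq's. Levels were not compared between genes, and the number of arrays limits the precision.

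The members, lists and alternatives were chosen with earlier results of these data known. By rule all members are named, with the value in every heart for Foxm1 and, in each role, for the members of largest and smallest difference; Cdk1, Bub3 and Cenpe were added after their values were seen. The 4 other mitosis genes of lowest p are named. The rule's promoters, those of Ccnb1 and Foxm1, were not shown, as Ccnb1 has no value here and Foxm1 no window. Alternatives were a dim filter (clusters from the 25th percentile up), 1 cluster per gene, 3 rescalings, array weights, the replicate number as a block, a variance fitted as trended and robust, a test against 1.5-fold, averaging a gene's clusters and leaving out each heart.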

Additional observations from a re-analysis of the deposited data

How the results depend on the processing

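The count of members past the adjusted threshold was 0 in all 15 alternative fits, with a lowest adjusted p of 0.426 (array weights). The count of clusters past it was 0 except without knockout replicate 1, where it was 1, so that leaving out a heart gave 0 to 1; that cluster is no member. With a trended robust variance 2 members in place of 0 had an unadjusted p under 0.05, with no share of all clusters given for that fit. The number of members was 0 in every fit that left out a heart. With array medians centred 1 member in place of 3 lay wholly above in the knockout. Leaving out each heart in turn gave 2 to 6 members wholly below and 4 to 6 wholly above. With fewer hearts, separation of the groups is easier, and the matching shares of all clusters are not given here. The same settings gave 14 to 24 members lower by mean, a mean difference of -0.03 to 0.03 and an Itgb1 difference of -0.31 to -0.20. The design names 40 members, and 39 enter these means.

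18 of 39 differences kept their sign in all 11 settings that give another value, 7 lower (Birc5, Ccna2, Ccnb2, Cdk1, Espl1, Foxm1, Plk1) and 11 higher (Cdc25c, Cenpe, Cenpf, Ect2, Kif20a, Kif20b, Kif23, Prc1, Top2a, Ttk, Ube2c). The other 21 turned their sign at least once, of which 20 were under 0.1 in size. The replicate numbers do not pair the hearts: deviations of same-numbered hearts correlated at -0.04, -0.03 and -0.06, and no heart correlated best with its own number. With the replicate block 0 clusters and 0 members passed, the mean difference was -0.0005 and that of Itgb1 -0.25. With 3 arrays a group, the intervals give the precision of each difference.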

Other observations

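Genes of the checkpoint before mitosis and targets of p53, which differ in role, were read as a separate list of 11 genes. Of the 11, 9 had a cluster of their own. Of these, 6 had a higher and 3 a lower mean in the knockout, with 0 past the adjusted threshold and 0 without overlap between the groups. Without knockout heart 1 the count turned, with 6 lower and 3 higher, and the mean difference went from 0.07 to -0.0078. Gadd45b, a stress-induced inhibitor of Cdk1, read 8.65, 8.80 and 8.64 in wild-type hearts and 9.67, 8.81 and 8.75 in knockout hearts 1 to 3, so that its difference of 0.38 ± 0.23 (log2, SE) was 0.08 without knockout heart 1. Gadd45a likewise stood at 8.26 in knockout heart 1 and between 7.16 and 7.53 in the other 5 hearts. Ccng1 went the other way, at 10.84 in knockout heart 1, below all wild-type hearts, with a difference of -0.16 ± 0.10. Knockout heart 1 lay above all wild-type hearts for 5 of the 9 genes (55.6%, against 30.5% of all clusters). It lay below all of them for 2 (22.2%, against 34.2%). The checkpoint kinase genes differed by -0.16 ± 0.12 for Chek1 and 0.16 ± 0.12 for Chek2. These genes were named after their values were seen.

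The spread between hearts was larger in the knockout for 25 of the 39 mitosis members (64.1%), against 63.3% of all clusters and 73.9% of those at least as bright as the dimmest member, and for 32 of the 35 DNA replication genes (91.4%). The share of the members was near that of all clusters. By role it ran from 2 of the 6 kinesins to all 6 mitotic kinase and passenger genes. These roles were picked after the counts were seen. For Aurka and Birc5 the SDs were nearly equal, at 0.088 in the knockout against 0.083, and 0.097 against 0.095.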
